A study of Mus musculus with 18 samples.

Results

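The comparison set 6 libraries of ileal epithelium from lactating female mice on day 7 of lactation against 6 from virgin females of matched age. They are 12 of the 18 libraries of the series, and the remaining 6, from virgin males, entered the estimate of spread. Epithelial cells were sorted from the ileum, the last stretch of the small intestine, and their polyadenylated RNA was sequenced in bulk. The members described are the genes on autosomes and the X chromosome: 45617 of the 47729 gene identifiers in the tables lay there, and 15469 of them had enough reads to be tested. No strain, genotype, age in weeks, sorting gate or litter size is given in the sources used here, and no treatment other than lactation is named. The labels name RM3 chow for breeding and RM1 chow for maintenance and experiment without tying either to a group, so diet and lactation cannot be told apart. Whether every library came from its own animal is not stated, so the p-values reflect only the variation among these libraries.

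A lactating mouse eats far more than a virgin one, and its intestine enlarges and must supply the calcium, trace metals, vitamins and energy that leave in the milk. Minerals cross an absorptive cell through a transporter in the brush border, bind to carriers in the cytosol and leave through an exporter in the basal membrane. New epithelial cells are born in crypts and climb the villus as they mature, so the mix of crypt and villus cells in a sample sets the level of many genes. The comparison asks which genes of the epithelium differ in lactation, and what is seen when the crypt content of each library is taken into account.

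The lactating libraries held 37984403 to 46046333 counts in total and the virgin female libraries 36508736 to 49039300. The labelled tissue was checked against its markers. Epcam, an adhesion protein of epithelia, stood at 2342 ± 646 CPM (counts scaled to library size) in lactating and 2197 ± 554 CPM in virgin libraries (SD, n = 6 each), and the ileal bile acid carrier Fabp6 at 6347 ± 3572 and 4541 ± 2148 CPM. Markers of other cells were low beside these: 12 markers of T and natural killer cells summed to 0.714 to 7.48 CPM in lactating and 1.12 to 5.57 CPM in virgin females, 9 of B and plasma cells to 1.15 to 8.23 and 1.26 to 5.01 CPM, and 9 of fibroblasts and muscle to 0.298 to 1.15 and 0.128 to 0.671 CPM. For 11 myeloid markers the sums were 17.3 to 29.1 (median 20.6) and 12.1 to 49.1 CPM (median 28.4). Lyz2 was the highest of these markers by median, at 12.6 and 23.0 CPM. It is also on the marker list of Paneth cells, which belong to the epithelium, so the myeloid sum is no clean measure of myeloid cells. For 6 neural markers the sums were 0.117 to 0.779 and 0.42 to 0.841 CPM. Endothelial markers, 7 in number, summed to 4.91 to 9.73 CPM in lactating (median 7.42) and 4.67 to 7.11 CPM in virgin females (median 5.49), and 5 red blood cell markers to 0.0458 to 3.47 (median 0.971) and 0 to 0.52 CPM (median 0.0383). The macrophage receptor gene Csf1r, at 0.81 ± 0.421 against 0.356 ± 0.191 CPM, and the endothelial receptor gene Tie1, at 2.25 ± 1.36 against 1.25 ± 0.689 CPM, had unadjusted p of 0.00851 and 0.00706 with the crypt term defined below and adjusted p of 0.254 and 0.235. Csf1r was 1 of 4 myeloid markers tested, of which 2 had a positive fold change, with a median of -0.05 on the log2 scale. Tie1 was 1 of 4 endothelial markers tested, of which 3 had a positive fold change, with a median of 0.15 and a lowest value of -0.22. Lyve1 was the highest endothelial marker, with medians of 4.09 and 3.79 CPM. Cdh5, Kdr and Plvap had means of at most 0.0462 CPM in either group and were not tested. S100a9 and Sox10 were at 0 in all 12 libraries, and the part of all these cell types in the results below was not tested. One virgin female library, number 2, stood apart, with 31048 CPM of Gm42418, a transcript overlapping ribosomal RNA, against 1230.2 to 3594 CPM in the other 5. Male library 6 shared that feature, and results without both libraries are given beside the counts below.

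The crypt score of a library is the mean log2 CPM of 51 genes of the cell cycle and of intestinal stem cells. It ran from 3.54 to 5.19 in lactating and from 3.57 to 5.18 in virgin females. The groups covered the same range, with means of 4.42 ± 0.60 and 4.43 ± 0.59 (SD, n = 6 each). The difference, lactating minus virgin, was -0.013 (two-sided exact permutation test, p = 0.968, where the smallest possible p is 0.00216). Males were narrower, at 4.86 ± 0.19. The score thus varied inside each female group much more than between them. The expression of 7038 of the 15469 genes (45.5%) changed with the score at an adjusted p under 0.05.

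Without a crypt term, 9 genes differed between lactating and virgin females, 0.0582% of those tested, with 6 higher (0.0388%) and 3 lower (0.0194%) in lactation. With the crypt score as a covariate, 36 genes (0.233%) passed the same threshold, an adjusted p under 0.05, and 29 were higher (0.187%) and 7 lower (0.0453%) in lactating females. All 9 were among the 36. The fold changes moved little: no called gene shifted by more than 0.255 on the log2 scale. The standard error (SE) of the fold change was smaller with the crypt term in each of the 27 added genes, with a median ratio of 0.801 against 0.869 over all genes. The 27 were picked for passing only with the term, which itself favours a smaller SE, so this is a description. The unadjusted p was under 0.05 for 998 genes (6.45%) without the term, 3.40% higher and 3.05% lower, and for 1741 (11.3%) with it, 5.99% higher and 5.27% lower. DESeq2, another count model, called 67 genes (0.428%) without and 260 (1.65%) with the term, and its calls included all 9 and all 36. The 6 lactating and 6 virgin libraries did not overlap in CPM for 45 genes (0.291%), 23 higher (0.149%) and 22 lower (0.142%). After the fitted crypt slope was removed they were apart for 82 genes upward (0.530%) and 73 downward (0.472%). Among the 36 called genes the groups were apart for 17 in CPM and for 30 after the slope was removed. These counts follow from the same contrast as the calls. In a bulk library, fewer cells of a type and less RNA per cell cannot be told apart. With virgin female 2 and virgin male 6 left out, 1 gene was called without the crypt term (Bcl6) and 26 with it, 22 of them among the 36. With the 2 female groups fitted alone the counts were 1 and 11. Below, fold changes are from the fit with the crypt term unless another is named.

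**Figure D1:**
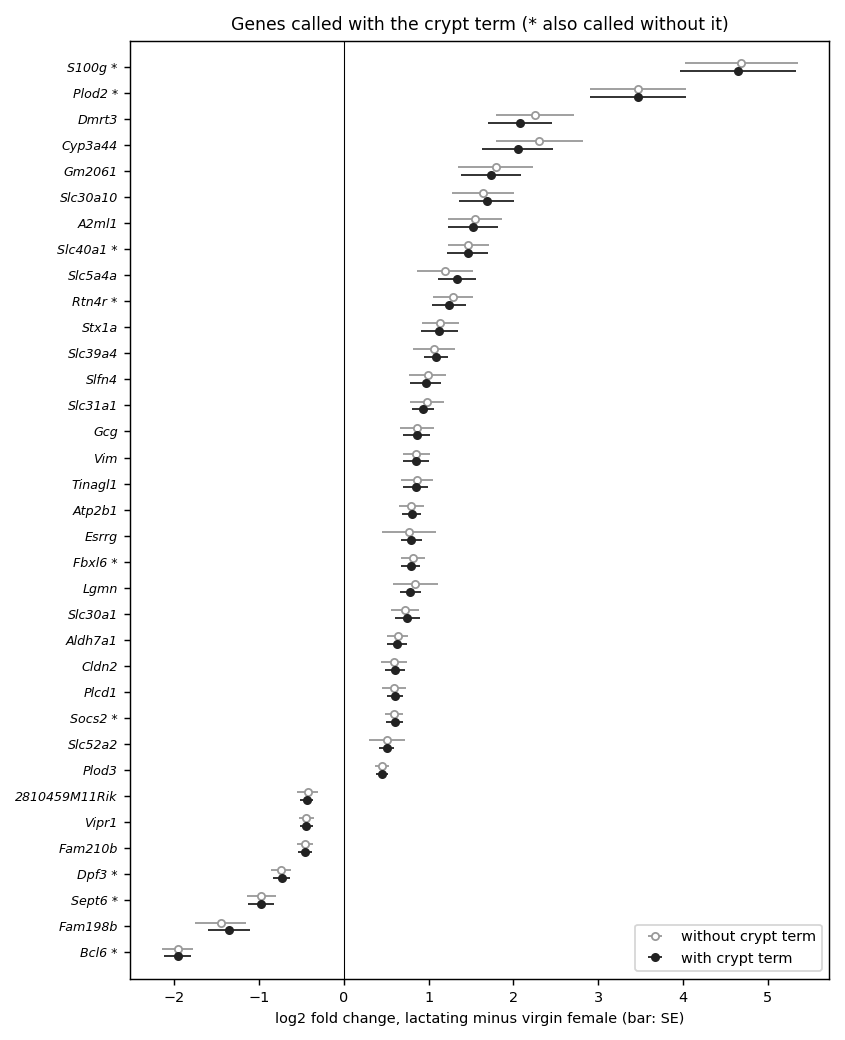
Log2 fold change (x axis, lactating minus virgin female) of 35 of the 36 called genes, with open points for the fit without and filled points for the fit with the crypt term; bars are 1 SE. The paired points lie close together, 28 genes lie to the right of 0 and 7 to the left, and the bars narrow most for genes such as Esrrg and Slc52a2.

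How the term acts is seen in 3 genes. Slc39a4, the zinc importer ZIP4 of the brush border, was at 400.4 to 1089 CPM in lactating females (median 730.2) and 214 to 613 CPM in virgin females (median 337). The groups overlapped, since virgin female 1, the virgin library with the lowest crypt score, was above lactating 3 and 4. The level fell by 0.75 log2 units per unit of crypt score (adjusted p = 9.86e-05). After that slope was removed the lactating libraries held log2 levels of 8.83 to 9.82 and the virgin libraries 8.10 to 8.51, with no overlap. Slc52a2, a riboflavin transporter, had overlapping levels of 118 to 253 CPM (median 163) and 71.5 to 167 CPM (median 134), which became 7.07 to 7.48 and 6.63 to 6.95 log2 units, again without overlap. Its log2 fold change was 0.50 in both fits, while its SE went from 0.21 to 0.09 and its adjusted p from 0.717 to 0.0142. The call was kept in 8 of the 12 fits that left out 1 female library, and it was lost with the 2 female groups alone, with the stem cell genes alone as covariate and with a crypt minus villus score. Esrrg, an orphan nuclear receptor of the estrogen-related family, ran the other way along the axis and rose by 1.15 log2 units per unit of score (adjusted p = 2.41e-07). It was at 3.71 to 14.3 CPM (median 5.95) in lactating and 1.71 to 7.33 CPM (median 3.61) in virgin females, which overlapped, and its log2 fold change of 0.79 had an adjusted p of 0.701 without and 0.00672 with the term. Of the 27 added genes, 18 had a crypt slope that passed the test, and 9 did not.

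**Figure D2:**
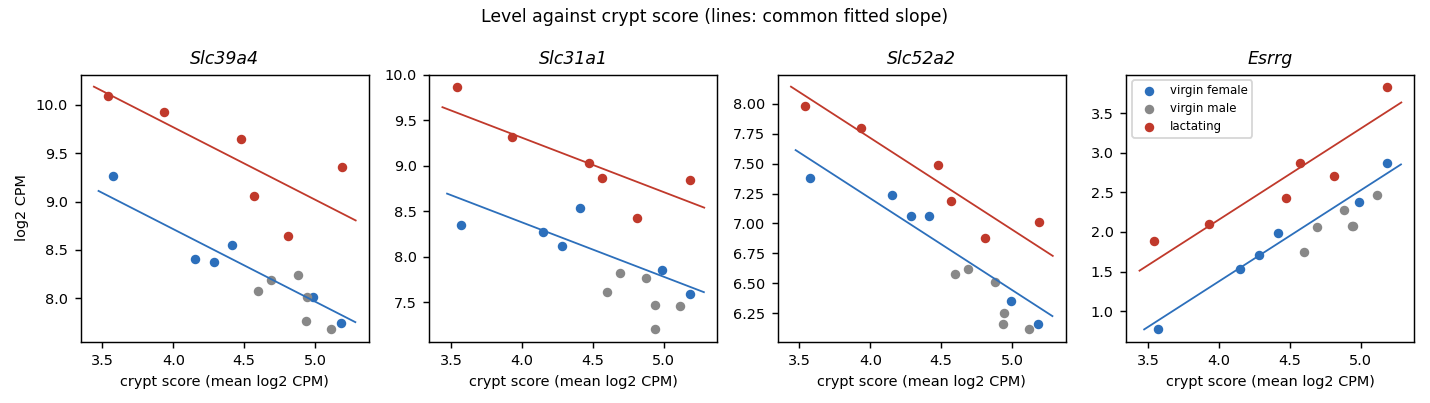
Level (y axis, log2 CPM) of Slc39a4, Slc31a1, Slc52a2 and Esrrg against crypt score (x axis, mean log2 CPM) in each of the 18 libraries; lines carry the common fitted slope through the 2 female groups. The lactating points lie above the virgin female points at the same score, and both groups span nearly the same scores, 3.54 to 5.19 and 3.57 to 5.18.

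Calcium absorption was represented by a binding protein, a pump and a pore. Of 11 tested genes of calcium and phosphate transport, 3 rose and none of the others passed the test in either direction. The list's median log2 fold change was 0.03, beside 0.00 over all genes. S100g, the cytosolic calcium carrier calbindin-D9k (chrX:162961992-162964599, GRCm38), was at 6.15 to 202 CPM in lactating females (median 30.2) and at 1.34 to 3.61 CPM in virgin females (median 2.81). The groups did not overlap, and lactating 1 and 2 (202 and 129 CPM) were far above lactating 4 (6.15 CPM). The fold change came to 4.65 on the log2 scale (SE 0.69, adjusted p = 0.00528). S100g overlaps Ctps2 on the other strand. The fold change was 3.62 without lactating 1, and without lactating 2 it was 3.72 with an adjusted p of 0.0504.

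Atp2b1, a calcium-exporting ATPase of the plasma membrane (chr10:98914406-99026143), was at 240 to 432 CPM (median 313) against 134 to 226 CPM (median 190). Every lactating library was above every virgin one, and the log2 fold change was 0.80 (SE 0.11, adjusted p = 0.0041). Cldn2, a claudin that forms cation-permeable pores between cells, was at 181 to 269.7 CPM (median 212) against 113 to 178 CPM (median 144). The groups did not overlap, and the log2 fold change was 0.60 (SE 0.12, adjusted p = 0.0453). This call was kept in 3 of the 12 fits that left out 1 female library. The apical calcium channel Trpv6 and its relative Trpv5 had no counts in any of the 12 female libraries. Vdr, the vitamin D receptor, was at 351 ± 46.3 CPM against 415 ± 47.9 CPM (log2 fold change -0.24, SE 0.10, adjusted p = 0.343), and the phosphate transporter Slc34a2 at 1190.4 ± 446 against 1034 ± 448 CPM (adjusted p = 0.571). Among 9 tested genes listed as vitamin D targets, or as vitamin D receptor partners, 4 rose. They were S100g, Atp2b1, the manganese exporter Slc30a10 and the cytochrome P450 gene Cyp3a44, which overlap the mineral lists in part. Without virgin female 2 and virgin male 6, or with the stem cell genes alone as covariate, S100g and Atp2b1 were called, and with the 2 female groups alone Atp2b1 was. The Cyp3a44 call was kept in 2 of the 12 fits without 1 female library.

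Genes for the import of zinc and copper and for the export of zinc and manganese were among those that rose. Of 15 tested genes of these metals, 4 rose and none fell at the adjusted threshold, and at an unadjusted p under 0.05 the counts were 4 up and 4 down, where 5.99% and 5.27% of all genes passed in those directions. The median log2 fold change of the list was -0.04, so the rises stood beside members that leaned the other way. Slc39a4 (chr15:76612383-76617384), given above, had a log2 fold change of 1.08 (SE 0.14, adjusted p = 0.00355). Slc31a1, the copper importer CTR1 (chr4:62360727-62391769), was at 345 to 936 CPM (median 493) in lactating and 193 to 370.2 CPM (median 293) in virgin females. Only lactating 3, at 345 CPM, was below the highest virgin library, and the log2 fold change was 0.93 (SE 0.13, adjusted p = 0.00355). Slc31a1 overlaps the gene Cdc26 on the other strand.

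The exporters also rose. Slc30a10, which carries manganese out of cells (chr1:185454848-185468762), was at 34.8 to 175 CPM (median 68.3) in lactating and 11.5 to 36.3 CPM (median 30.5) in virgin females. The lowest lactating library lay just under the highest virgin one, and the log2 fold change was 1.68 (SE 0.33, adjusted p = 0.0355). Slc30a1, a zinc exporter of the plasma membrane, was at 93.7 to 169 CPM (median 122) against 56.1 to 110 CPM (median 76.0). The groups overlapped through virgin female 1, and the log2 fold change was 0.75 (SE 0.15, adjusted p = 0.0372). Slc39a4 and Slc31a1 were called in all 12 fits that left out 1 female library, Slc30a1 in 6 and Slc30a10 in 4. Without virgin female 2 and virgin male 6, Slc39a4 and Slc31a1 were still called and Slc30a10 and Slc30a1 were not.

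The metallothioneins, small proteins that bind zinc and copper in the cytosol, had lower values in lactation that did not pass the test. Mt1 was at 14.5 to 35.5 CPM (median 25.9) in lactating and 37.0 to 96.6 CPM (median 56.9) in virgin females, with a log2 fold change of -1.15 (SE 0.29, adjusted p = 0.108). Mt2 was at 1.45 to 12 CPM (median 5.5) against 12.3 to 51.4 CPM (median 23.8), with -1.95 (SE 0.61, adjusted p = 0.206). In CPM neither gene's groups overlapped, but after the crypt slope was removed both did, through virgin female 2 and lactating 3 and 4. Mt1 was called as lower in 3 of the 22 alternative fits with the crypt term. These were DESeq2, voom with quality weights, and the fit that dropped both libraries rich in Gm42418. Among the 19 alternatives lacking the term, Mt1 was called in 1, by DESeq2. Mt2 was called in 0 of either set.

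Metal response elements, which bind the zinc-sensing factor MTF1, have the core letters TGCGCNC or TGCACNC, and both strands were searched in the 250 bases before each RefSeq gene start. At least 1 match lay in 21.4% of 32851 such windows and at least 3 in 1.26%. Windows of 24 of the 36 called genes were searched. Of these genes 13 had a match in at least 1 of their windows (14 of 32 windows), beside 23.8% of all 27025 genes with a window. The remaining called genes were not searched, so the 13 is not a count over all 36. The fallen genes Fam210b and Vipr1 are among the 13. For the risen metal transporters, the window of Slc31a1 held 0 matches and that of Slc30a1 held 1, and Slc39a4 had no window. The most matches, 4, lay in the window of Plod3, a collagen-modifying enzyme gene described below. The window of Slc30a10, shown because it holds the most matches among the risen metal transporters that have a window, has 3, with the matched letters in capitals, and the first pair overlap on opposite strands. The windows of Mt2 and Mt1 held 3 and 1. It is given 5′ to 3′ from RefSeq on GRCm38.p6, plus strand, chr1:185454598-185454847, and lies inside the antisense gene Gm2061 but outside its exons.
Slc30a10: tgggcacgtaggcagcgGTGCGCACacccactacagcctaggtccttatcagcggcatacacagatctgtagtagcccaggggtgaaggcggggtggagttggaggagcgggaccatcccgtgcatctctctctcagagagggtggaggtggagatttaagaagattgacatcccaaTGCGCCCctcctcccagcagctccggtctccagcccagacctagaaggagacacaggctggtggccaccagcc
Gm2061, chosen after its values were seen, was also called, at 16.6 to 104 CPM in lactating and 4.11 to 24.4 CPM in virgin females (log2 fold change 1.74, SE 0.35, adjusted p = 0.0453). Gm2061 and Slc30a10 overlap on opposite strands. The library kit keeps strand, but the strand setting of the counting is not given, so reads of the pair may be mixed.

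In iron handling, 1 of 14 tested genes rose and none fell. Slc40a1, the exporter ferroportin of the basal membrane (chr1:45908068-45926523), was at 28.8 to 77.3 CPM (median 53.0) in lactating and 12.5 to 23.9 CPM (median 20.1) in virgin females. The groups did not overlap, and the log2 fold change was 1.46 (SE 0.25, adjusted p = 0.0119), with 1.47 and 0.0271 without the crypt term. The iron importer Slc11a2 was at 45.4 ± 3.54 against 49.5 ± 7.59 CPM (log2 fold change -0.12, SE 0.08, adjusted p = 0.636). Ftl1, the ferritin light chain of iron storage, was at 378 to 829 CPM against 348 to 677 CPM, with a log2 fold change of 0.23 (SE 0.07, adjusted p = 0.166). Its groups separated once the crypt slope was removed, at 8.96 to 9.02 and 8.65 to 8.86 log2 units, but the difference did not pass the test. Ferritin genes have near-identical processed copies, so counts of Ftl1 are uncertain.

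Bcl6 had the smallest p of all genes in both fits. It encodes a transcriptional repressor known from germinal centre B cells and as a gene that growth hormone and STAT5 repress in liver. Bcl6 (chr16:23965052-23988852) was at 2.10 to 4.16 CPM in lactating females (median 2.98) and 8.49 to 16.4 CPM in virgin females (median 11.5). The highest lactating library was below the lowest virgin one, and males lay with the virgin females at 11.7 ± 1.80 CPM (SD, n = 6). The log2 fold change was -1.96 without the crypt term (SE 0.18, adjusted p = 2.8e-05) and -1.96 with it (SE 0.16, adjusted p = 4.12e-06). The T cell and B cell marker lists given above summed to at most 7.48 and 8.23 CPM, and their part in the Bcl6 values was not tested.

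In the list of 14 tested genes of growth hormone, prolactin and STAT5 signalling, 1 rose and 1 fell, and the median log2 fold change was -0.13. The riser was Socs2, a feedback inhibitor of growth hormone signalling, at 72.9 to 109 CPM (median 84.4) in lactating and 47.3 to 69.7 CPM (median 57.9) in virgin females. The groups did not overlap, and the log2 fold change was 0.60 (SE 0.10, adjusted p = 0.0109). Cish, a related inhibitor, was at 16.5 to 34.8 CPM (median 22.5) against 6.74 to 18.2 CPM (median 12.4) and missed the threshold (log2 fold change 0.93, SE 0.21, adjusted p = 0.0778). Socs3 was at 47.8 ± 24.6 against 27.7 ± 6.51 CPM (adjusted p = 0.254) and the growth factor receptor Igf1r at 8.43 ± 3.26 against 12.2 ± 4.97 CPM (adjusted p = 0.188). STAT factors bind the letters TTCNNNGAA, a sequence that reads alike on both strands. These letters occurred in 7.02% of the 250-base windows, at least 3 times in 0.0274%, and among the 24 called genes with a window searched in Bcl6 alone. Socs2 had no window and was not searched, and the window of Cish held 0 matches. RefSeq lists 2 starts for Bcl6 on the minus strand of GRCm38.p6. Both windows are shown because Bcl6 changed most firmly, 5′ to 3′ with TTCNNNGAA in capitals. The first, before the start of the gene, is chr16:23988853-23989102 with 1 match, and the second, in an intron of the longer transcript, is chr16:23981284-23981533 with 3.
Bcl6 window 1: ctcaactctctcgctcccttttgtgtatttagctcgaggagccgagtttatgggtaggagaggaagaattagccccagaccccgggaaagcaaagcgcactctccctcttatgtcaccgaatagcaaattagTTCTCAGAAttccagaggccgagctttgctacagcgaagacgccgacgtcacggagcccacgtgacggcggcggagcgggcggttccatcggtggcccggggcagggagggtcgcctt
Bcl6 window 2: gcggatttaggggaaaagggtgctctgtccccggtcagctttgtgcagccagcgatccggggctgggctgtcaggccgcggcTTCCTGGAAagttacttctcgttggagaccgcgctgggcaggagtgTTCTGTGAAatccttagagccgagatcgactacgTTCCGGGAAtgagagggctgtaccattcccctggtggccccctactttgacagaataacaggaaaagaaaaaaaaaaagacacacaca
A match describes letters only, and binding was not measured.

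**Figure D3:**
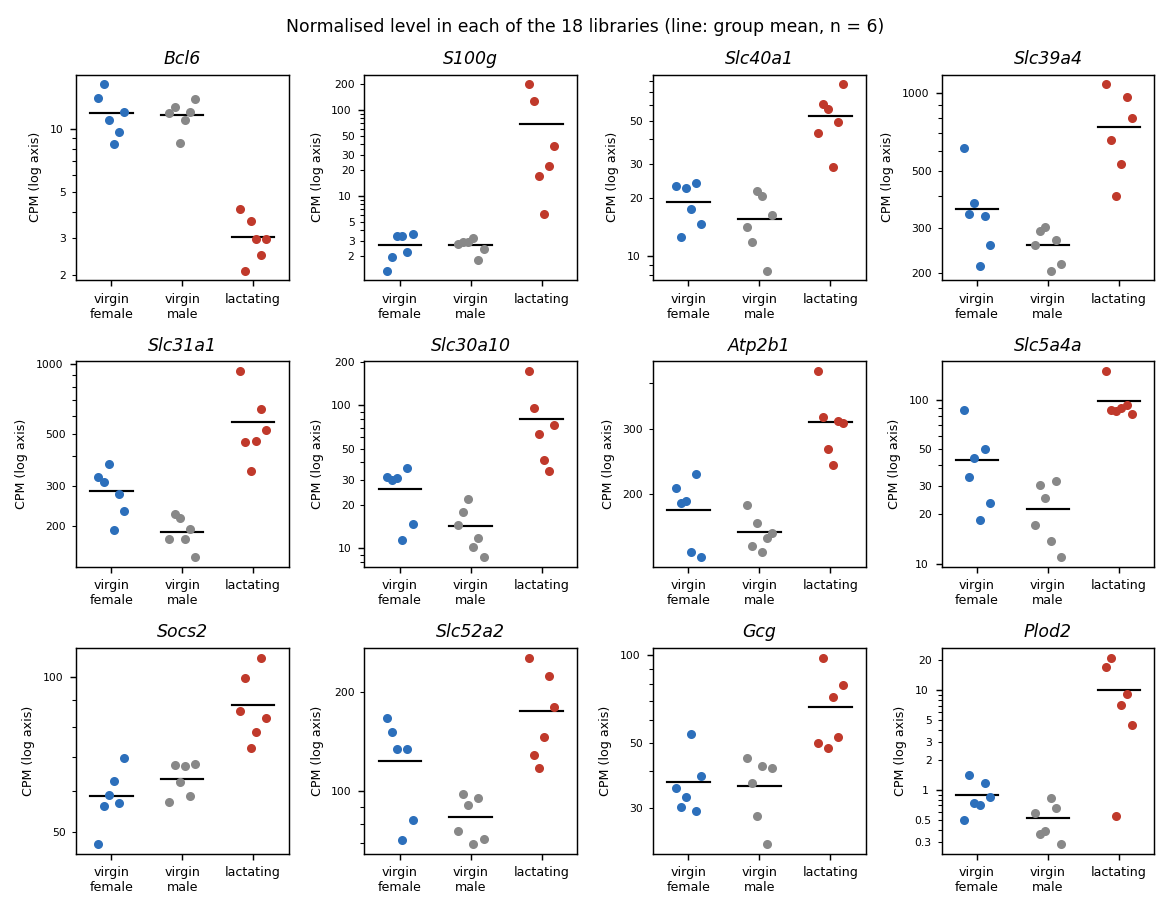
CPM on a log axis (y) of 12 called genes in every library of the 3 groups (x), with the group mean as a line (n = 6). Bcl6 is lower in all 6 lactating libraries than in any virgin female, S100g, Slc40a1, Atp2b1 and Socs2 are higher in all 6, and Plod2 has 1 lactating library, at 0.55 CPM, among the virgin values.

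Among sugar transport genes 1 of 12 tested rose. Slc5a4a, a member of the sodium-glucose transporter family regarded as a glucose sensor (chr10:76147451-76189265), was at 81.8 to 151 CPM (median 88.1) in lactating and 18.6 to 86.9 CPM (median 38.9) in virgin females. The groups touched only through virgin female 1, and after removal of the crypt slope they were apart, at 5.95 to 7.02 and 4.70 to 5.52 log2 units. The log2 fold change was 1.34 (SE 0.22, adjusted p = 0.0109). Its close copy Slc5a4b was at 95.7 ± 55.3 against 136 ± 81.1 CPM (log2 fold change -0.41, SE 0.28, adjusted p = 0.62), and counts of such copies are uncertain. The main glucose transporter Slc5a1 was at 1275 ± 314 against 1229 ± 469 CPM (adjusted p = 0.847). The inositol transporter Slc5a11 was at 69.6 ± 24.5 against 105 ± 41.7 CPM (adjusted p = 0.166) and the fructose transporter Slc2a5 at 46.5 ± 13.6 against 65.9 ± 19.2 CPM (adjusted p = 0.255).

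Of 15 genes of B vitamin uptake and use, Slc52a2 alone was called. At an unadjusted p under 0.05, 7 were higher and 1 lower with the crypt term, against 2 and 0 without it, and the median log2 fold change was 0.17. Slc5a6, which carries biotin and pantothenate, was at 84.5 ± 45.3 against 63.2 ± 31.1 CPM with a log2 fold change of 0.42 (SE 0.13, adjusted p = 0.188), and the riboflavin kinase Rfk at 981 ± 325 against 782 ± 237 CPM with 0.32 (SE 0.12, adjusted p = 0.298). The start of Slc52a2 lies 86 bases from that of Fbxl6, an F-box protein gene that was called too. Fbxl6 was at 28.4 to 55.0 CPM (median 43.1) against 20.5 to 29.4 CPM (median 24.8), with a log2 fold change of 0.79 (SE 0.11, adjusted p = 0.00355). The neighbours point away from each other on opposite strands, and Slc39a4 lies 67775 bases beyond Slc52a2.

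Among genes of enteroendocrine cells, the hormone-secreting sensory cells of the epithelium, 1 of 20 tested rose. The list holds hormones, granule proteins, processing enzymes and transcription factors, and 19 of its genes had a positive fold change, with a median of 0.38 on the log2 scale. At an unadjusted p under 0.05, 7 were higher and 0 lower, beside 5.99% and 5.27% of all genes. Gcg, the precursor of glucagon-like peptides 1 and 2, was at 48.1 to 98.2 CPM (median 62.2) in lactating and 29.2 to 53.9 CPM (median 34.0) in virgin females. The groups overlapped through virgin female 4, and the log2 fold change was 0.86 (SE 0.16, adjusted p = 0.0287). This call was kept in 5 of the 12 fits without 1 female library. The granule proteins Chga (64.2 ± 8.60 against 44.1 ± 9.52 CPM, adjusted p = 0.0934) and Chgb (113 ± 31.7 against 67.7 ± 16.3 CPM, adjusted p = 0.0851) and the neuropeptide gene Tac1 (5.35 ± 2.59 against 2.41 ± 0.660 CPM, adjusted p = 0.0861) did not pass. Stx1a, a syntaxin of vesicle release, was at 3.83 to 7.07 CPM against 1.62 to 3.75 CPM without overlap (log2 fold change 1.13, SE 0.22, adjusted p = 0.032). Its call was kept in 4 of those 12 fits. Both Gcg and Stx1a were lost with the 2 female groups alone and without virgin female 2 and virgin male 6. The summed level of 22 enteroendocrine markers was 328 to 692 CPM (median 596) in lactating and 348 to 444 CPM (median 391) in virgin females, and whether Gcg and Stx1a follow the number of such cells was not tested.

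Lysyl hydroxylases, which modify lysines of collagen and related proteins, supplied 2 of 10 tested genes of collagen modification. Plod2 was at 0.55 to 21.2 CPM (median 8.13) in lactating and 0.503 to 1.41 CPM (median 0.797) in virgin females. Of the lactating libraries 5 were above all virgin ones, and lactating 3 was not. The log2 fold change reached 3.47 (SE 0.57, adjusted p = 0.0106), and 2.65 with an adjusted p of 0.0618 without lactating 2. Plod3 was at 17.3 to 22.3 CPM against 12.8 to 16.4 CPM without overlap, a log2 fold change of 0.45 (SE 0.07, adjusted p = 0.0074), while Plod1 was at 12 ± 6.76 against 7.48 ± 2.78 CPM (adjusted p = 0.257). Egln3, an oxygen-sensing prolyl hydroxylase, was at 41.5 ± 12.8 against 65.8 ± 21.8 CPM (adjusted p = 0.181).

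The rest of the called genes were varied. Higher in lactation were the protease gene Lgmn (24.6 to 75.6 against 14.1 to 33 CPM, log2 fold change 0.78, adjusted p = 0.00904), the phospholipase Plcd1 (0.60, adjusted p = 0.00672), the Nogo receptor gene Rtn4r (4.48 to 11.5 against 2.17 to 3.74 CPM, adjusted p = 0.00904) and the lysine-degrading enzyme Aldh7a1 (0.63, adjusted p = 0.026). Plcd1, Rtn4r and Aldh7a1 did not overlap between groups in CPM. Some genes of low level rose by larger ratios: the transcription factor Dmrt3 (3.04 ± 1.75 against 0.634 ± 0.247 CPM), the protease inhibitor A2ml1 (2.31 ± 1.18 against 0.786 ± 0.170 CPM) and Cyp3a44 (7.85 ± 6.09 against 1.59 ± 0.750 CPM), whose counts are uncertain because the Cyp3a genes are close copies. Vim, the intermediate filament of mesenchymal cells, was at 2.91 to 5.37 CPM against 1.76 to 2.63 CPM (log2 fold change 0.85, adjusted p = 0.017). In lactating libraries the fibroblast and muscle markers given above summed to at most 1.15 CPM. The endothelial sum reached 9.73 CPM there, that of T and natural killer cells 7.48 CPM and the myeloid sum 29.1 CPM. Lyz2, on the myeloid list and also a Paneth cell marker, reached 23.1 CPM there. The part of other cells in the Vim values was not tested. Tinagl1 and Slfn4, chosen after their values were seen, rose by 0.85 and 0.96.

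Besides Bcl6, 6 genes fell. Dpf3, a subunit of the BAF chromatin remodelling complex, was at 7.42 to 10.8 CPM (median 8.29) against 11.7 to 17.2 CPM (median 14.3), with no overlap and a log2 fold change of -0.73 (SE 0.10, adjusted p = 0.00355). Vipr1, the receptor for vasoactive intestinal peptide, was at 141 to 193 CPM (median 166) against 219 to 238 CPM (median 228), a smaller but clean separation (log2 fold change -0.44, SE 0.08, adjusted p = 0.0142). The septin gene Sept6 (log2 fold change -0.98) and the mitochondrial protein gene Fam210b (-0.46) did not overlap either. Fam198b (-1.36) and 2810459M11Rik (-0.44) overlapped in CPM and were apart after the slope was removed.

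Several gene groups leaned in 1 direction with no member called. Of 25 cholesterol synthesis genes, 23 had a positive fold change (median 0.21), and 12 were higher and 1 lower at an unadjusted p under 0.05, beside 5.99% and 5.27% of all genes. Over all tested genes 7787 of 15469 had a positive fold change. The closest to the threshold was Idi1, an isomerase of the pathway, at 104 to 162 CPM (median 129.7) against 78.4 to 106 CPM (median 98.3), with an adjusted p of 0.0566. Msmo1 (131 ± 35.0 against 95.6 ± 15.5 CPM, adjusted p = 0.0983), Cyp51 (166 ± 25.3 against 127 ± 22 CPM, adjusted p = 0.108) and Hmgcs1 (376 ± 43.9 against 305 ± 33.7 CPM, adjusted p = 0.166) followed. Among 12 defence genes, Il18, a cytokine of the epithelium, was at 26.8 to 61.3 CPM (median 46.7) against 16.3 to 38.4 CPM (median 19.8), with an adjusted p of 0.0566. The antimicrobial lectin Reg3b was at 2624 to 21819 CPM against 1129 to 7564 CPM, where lactating 3, 5 and 6 were above all virgin libraries and lactating 1, 2 and 4 lay among them (adjusted p = 0.265). B3galt5, a glycosyltransferase, was highest in lactating 3 and 6, at 36.4 and 15.3 CPM, against 0.351 to 0.827 CPM in the other 4 (adjusted p = 0.188). In the bile acid list 0 of 11 were called. Fgf15, the ileal hormone that restrains bile acid synthesis, was at 17.7 to 51.4 CPM (median 28.7) against 28.2 to 226 CPM (median 138), and its wide virgin spread left a log2 fold change of -1.94 (SE 0.53, adjusted p = 0.137). Of 16 interferon response genes 5 were higher at an unadjusted p under 0.05 with the crypt term (5.99% of all genes) and 0 without it (3.40%), among them Isg15 (41.6 ± 26.1 against 24.4 ± 18.3 CPM, adjusted p = 0.357). No gene was called among 16 amino acid and peptide transport genes, 20 of fat absorption, 15 brush border enzymes, 30 nuclear genes of oxidative phosphorylation or 35 ribosomal protein genes. The last pair of lists also leaned upward by small amounts, with 27 of 30 and 32 of 35 positive fold changes and medians of 0.09 and 0.08. With the crypt slope removed, Rps3 was at 9.43 log2 units in lactating 5 against 8.46 to 8.90 in the other lactating libraries. It was at 8.29 in virgin female 2 against 8.53 to 8.93 in the other virgin females. Lactating 5 was likewise the highest lactating library, and virgin female 2 the lowest virgin one, for Rps14, Rps23, Rpl38, Cox5a, Ndufa2, Cox6c and Ndufb3. The remaining members were not examined by library. Other lists with no called gene leaned downward. Of 15 immediate early and heat shock genes 3 had a positive fold change. At an unadjusted p under 0.05, 1 of them was higher and 5 lower, beside 5.99% and 5.27% of all genes. Of 13 genes of regional identity 3 were positive, with 0 higher and 3 lower. Sterol uptake and efflux genes, 9 in number, had 3 positive fold changes, with 0 higher and 3 lower. Paneth cell markers, 12 in number, had 3 positive fold changes and a median of -0.19, with 0 higher and 0 lower. Without the crypt term their median was -0.47, with 0 higher and 1 lower. They summed to 5001 to 13305 CPM (median 6958) in lactating and 1469 to 19277 CPM (median 11999.9) in virgin females. Of the 15 brush border enzymes 5 were positive, with a median of only -0.045. With 0 higher and 1 lower, their counts were near the shares over all genes.

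**Figure D4:**
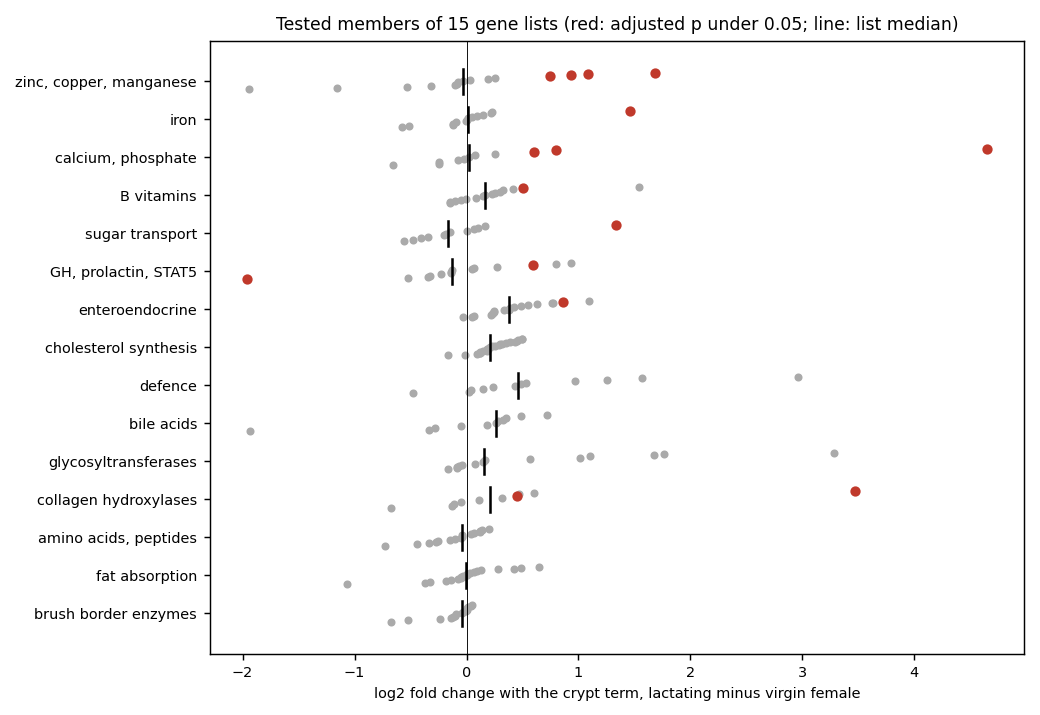
Log2 fold change with the crypt term (x axis) of the tested members of 15 gene lists (rows), with called genes in red and the list median as a line. Red points lie to the right of 0 in 8 lists and to the left only for Bcl6, and the medians of most lists lie near 0.

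The risen genes were not spread evenly over the lactating libraries. After removal of the crypt slope, lactating 6 held the highest lactating value for 12 of the 29 risen genes, beside 11.4% of all tested genes, and lactating 2 for 9, beside 9.76%. Lactating 1 was highest for 5 and lactating 5 for 3, beside 22.6% and 26.5%. The lowest value was in lactating 3 for 14 and in lactating 4 for 7, beside 19.0% and 10.5%. In raw CPM lactating 1, the library with the lowest crypt score, was highest for 15, beside 22.5%. These counts are a description, with no test.

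Leaving out each female library in turn kept 15 of the 36 calls in all 12 fits: Atp2b1, Bcl6, Dpf3, Esrrg, Fbxl6, Lgmn, Plcd1, Plod3, Rtn4r, Sept6, Slc31a1, Slc39a4, Slc40a1, Slc5a4a and Socs2. Lost calls were most frequent without lactating 6 (18 genes), virgin female 6 (16), virgin female 1 (15) and lactating 2 (14), and 1 call was lost without lactating 3. All 36 genes kept their direction in all 22 alternative fits with the crypt term, and 8 were called in every one: Atp2b1, Bcl6, Dpf3, Fbxl6, Slc31a1, Slc39a4, Slc40a1 and Slc5a4a.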

How the data were processed

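The authors deposited raw read counts per gene, 1 table per library. The submitters' processing notes name HISAT2 2.0.4, featureCounts (Subread 2.0.0), DESeq2 1.24.0, FastQC 0.11.5 and build GRCm38, and strand setting and annotation release are not given in the sources used here. Symbols and positions came from GENCODE M21, where 419 identifiers were not found. Library totals were 34577104 to 49039300 counts, without molecular identifiers.

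Genes were filtered with filterByExpr, scaled by TMM and fitted with edgeR 4.0.16 (R 4.3.3) quasi-likelihood on all 18 libraries, with and without the crypt score (prior count 2 in its log2 CPM). P-values were adjusted by Benjamini-Hochberg over 15572 genes, of which 15469 are members, and called under 0.05. The SE is the absolute fold change over the square root of F. The genes of the score set the covariate and are no result. Alternatives were DESeq2 1.42.0, limma 3.58.1 voom with quality weights, RLE scaling, no filter, a replicate block, other covariates and left-out libraries. The fits were tested on simulated data.

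Genes were named if called (beyond 30 calls, the 15 smallest p per direction), among the 10 smallest p per direction in either fit with at least 1 CPM and libraries on one side of the other mean, up to 4 per list by p, among the 10 that DESeq2 alone called or the 10 widest gaps, or from a short fixed list. The members, lists and rules were chosen with earlier results of these data known. No 2 female libraries matched within sampling noise (lowest chi-square per degree of freedom 34.76). No library was left out of the main comparison. Of the called genes, 1 is counted but not reported here by name.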

Additional observations from a re-analysis of the deposited data

Results flagged for a closer look

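In 6 of 76 groups of 6 libraries checked, 1 library stood far from the other 5, where chance gives about 1 in 20. Lactating 1 had 151 CPM of Slc5a4a against 81.8 to 93.2 CPM in the other lactating libraries, and 104 CPM of Gm2061 against 16.6 to 34.0 CPM. Lactating 2 had 14.3 CPM of Esrrg against 3.71 to 7.33 CPM. Lactating 5 had 10.8 CPM of Dpf3 against 7.42 to 8.64 CPM and 3.60 CPM of Fam198b against 2 to 2.45 CPM, in both cases toward the virgin values. Virgin female 2 had 31048 CPM of Gm42418 against 1230.2 to 3594 CPM. Lactating 1 and 2 are the libraries with the lowest and the highest crypt score of their group, 3.54 and 5.19. With the crypt slope removed lactating 1 no longer held the highest Slc5a4a value, which was in lactating 2 at 7.02 log2 units.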

How the results depend on the processing

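Without the crypt term the 9 calls became 67 with DESeq2, 2 with voom and 1 with the 2 female groups alone, with the replicate block, or without virgin female 2 and virgin male 6, and 2 to 16 when each female library was left out (16 without lactating 3; 2 without lactating 1 or virgin female 1, 2 or 3). With the crypt term the 36 became 260 with DESeq2, 144 with voom, 11 with the 2 female groups alone, 60 with the cell cycle genes alone as covariate, and 18 to 74 when each female library was left out (18 without lactating 6, 74 without lactating 3). All 36 were among the DESeq2 calls, 34 among those of voom and 10 among the 11. RLE scaling, no filter, the stem cell covariate and the crypt minus villus covariate gave 36, 37, 36 and 38, with 36, 34, 28 and 32 shared. The cause of these shifts was not tested. The crypt score difference was 0.062 with cell cycle genes alone, -0.179 with stem cell genes alone, -0.35 for the crypt minus villus score, and -0.185 to 0.162 when each library was left out, being 0.162 without lactating 1, 0.084 without lactating 5, 0.137 without virgin female 4 and 0.098 without virgin female 6. No pairing by replicate number was seen: same-numbered deviations correlated at -0.0631 to 0.219, and 0 of 6 correlated best with their own number. The deviations were not adjusted for the crypt score, with which 45.5% of genes changed, so a weaker pairing could be missed. With the replicate block 35 genes were called with the crypt term, 27 of them shared, and the crypt score difference stayed at -0.013 (exact sign-flip p = 0.969). Genes that the filter on low counts removed, such as Cyp24a1, were not tested.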
